A study of Mus musculus with 6 samples.

Results

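Lilrb4a and Lilr4b are a pair of neighbouring mouse genes for cell-surface receptors with immunoglobulin-like domains, known from mast cells as gp49B and gp49A. They were chosen by name from a comparison of old with young mice, in stimulated CD4+ T cells, in which both had stood higher in old mice, so their levels in that comparison are given as a description with no test. They are 2 of the 19977 genes and hold 9 of the 66712 RefSeq transcripts measured. The samples were wild-type C57BL/6 mice with no transgene or deleted allele in either group. The young group was 6 to 8 weeks old, carried in the sample titles as a 1-month code, and the old group was 11 months old. In both groups CD4+ T cells of spleen and lymph nodes were sorted by flow cytometry and stimulated in culture for 6 hours with antibodies to CD3, part of the T-cell receptor complex, and to CD28, its costimulatory partner. There was no unstimulated group, so levels before stimulation were not measured. RNA of 3 libraries per group was sequenced, with 16932551 to 18708205 expected counts per library. The labels do not say that each library came from a separate mouse, and a p-value here weighs a difference against the spread among libraries, part of which may be technical.

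Receptors of the leukocyte immunoglobulin-like receptor family come in inhibitory and activating forms. Inhibitory forms carry in their cytoplasmic tail the immunoreceptor tyrosine-based inhibitory motif (ITIM), which, once phosphorylated by kinases of the Src family, recruits phosphatases such as SHP-1 and SHIP-1 that dampen signals from other receptors. Activating forms have a short tail and pair with adaptor proteins that carry an activating motif. Lilrb4a is best known as an inhibitory receptor of mast cells and myeloid cells, and its protein also appears on activated T cells.

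The coding sequences are printed first because the proteins of the pair part at their ends. In GENCODE vM21 on GRCm38, both full forms, Lilr4b-201 and Lilrb4a-201, have 9 exons, and their coding sequences were identical at 874 of 910 aligned bases (96.0%). The stretch below is spliced coding sequence of the plus strand across 1 exon junction, its coordinates include the intron, and the capitals mark a run of C that has 7 bases in Lilr4b (chr10:51484563-51485760) and 5 in Lilrb4a (chr10:51494839-51496039).
Lilr4b: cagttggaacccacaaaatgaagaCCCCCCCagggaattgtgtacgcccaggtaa
Lilrb4a: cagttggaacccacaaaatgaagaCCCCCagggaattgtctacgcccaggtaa
The difference of 2 bases puts what follows into different reading frames. The last bases printed for Lilr4b are its stop codon, which ends the protein at 303 residues, while in Lilrb4a the same bases are read in another frame and the protein goes on to 335 residues. The next stretch shows the rest of each coding sequence from the end of the run of C, which in Lilrb4a again spans an intron. Capitals in Lilrb4a (chr10:51496016-51496244) mark the codons of its ITIMs, and capitals in Lilr4b (chr10:51485737-51485760) mark its stop codon.
Lilrb4a: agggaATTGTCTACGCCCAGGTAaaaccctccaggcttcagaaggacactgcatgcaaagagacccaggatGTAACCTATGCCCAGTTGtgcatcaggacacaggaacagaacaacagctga
Lilr4b: agggaattgtgtacgcccaggTAA
A search for the ITIM consensus in the translated tails matched at residues 298 and 320 of Lilrb4a and nowhere in the tail of Lilr4b. Of the 18 bases that encode the first motif of Lilrb4a, 17 are alike in Lilr4b, where they are out of frame. By sequence, then, the name of an inhibitory receptor fits Lilrb4a, and the tail of Lilr4b carries no such motif. RefSeq, on GRCm38.p6, places Lilr4b at chr10:51480612-51486329 and Lilrb4a at chr10:51490898-51496613, in the same direction and 4568 bases apart.

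Both members stood higher in every old library than in any young one. Lilrb4a, the inhibitory receptor, had 362.42, 419.86 and 238.8 expected counts in young libraries 1, 2 and 3, and 3507.83, 2969.35 and 3543.11 in old libraries 1, 2 and 3. As CPM, which is the share of counts scaled to a fixed library total with TMM factors, Lilrb4a was at 20.95, 22.57 and 13.81 in young and at 191.4, 160.3 and 193.6 in old libraries. Its groups did not overlap, with young library 3 the lowest and the old libraries close to each other. The means were 19.1 ± 4.66 and 182 ± 18.6 CPM (SD, n = 3 each), a ratio of 9.51 and a fitted log2 difference of 3.25 (SE 0.23).

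Lilr4b, the member without the motif, had 164.58, 177.14 and 63.2 expected counts in the young libraries and 1409.17, 1462.65 and 1597.89 in the old ones. Its CPM values were 9.55, 9.51 and 3.64 in young and 76.9, 79.0 and 87.3 in old libraries. Young library 3 was again the lowest, and the groups again did not overlap. The means were 7.57 ± 3.40 and 81.1 ± 5.52 CPM (SD, n = 3 each), a ratio of 10.7 and a fitted log2 difference of 3.42 (SE 0.37).

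Summed, the pair stood at 30.5, 32.1 and 17.4 CPM in young and at 268, 239 and 281 CPM in old libraries. The lowest old library held 7.46 times the CPM of the highest young library. The fitted log2 difference of the pair was 3.30 (SE 0.26), which 19 of the 10509 genes tested exceeded, 7 of them called. The median log2 difference of all genes tested was -0.03. Within the young group the highest library held 1.84 times the pair's level in the lowest, and within the old group 1.17 times. In the test over all genes, 92 genes were called at an adjusted p under 0.05 (0.875%). Old libraries were higher for 78 of them (0.742% of genes tested) and lower for 14 (0.133%). Old libraries were all above the young ones for 9.9% of genes and all below for 6.54%. Since the members were chosen for this difference, nothing is read from their place in those counts. In bulk RNA, more cells of a type that transcribes a gene and more RNA of that gene per cell cannot be told apart.

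**Figure D1:**
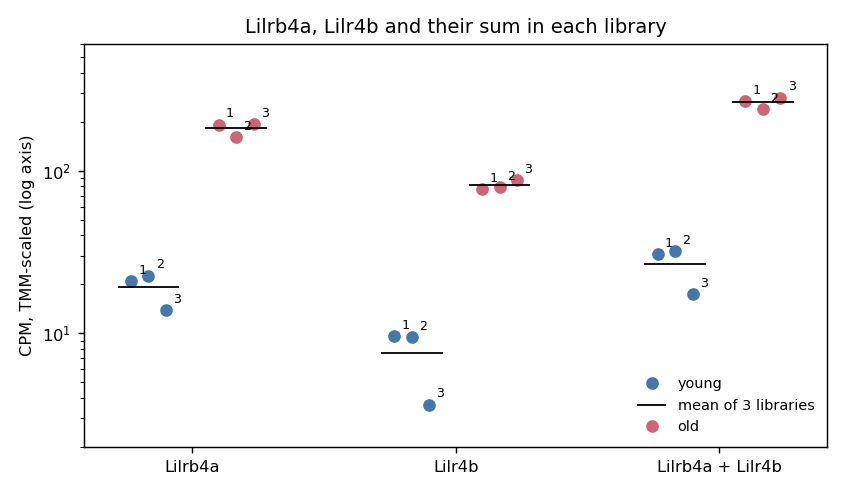
TMM-scaled CPM of Lilrb4a, Lilr4b and their sum on a log axis, with 1 point per library and a bar at the mean of each group of 3. The pair spans 17.4 to 32.1 CPM in young and 239 to 281 CPM in old libraries, and young library 3 is the lowest for both genes.

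Young library 1 stood apart from the other young libraries. Its log2 CPM correlated across genes at r = 0.926 and r = 0.913 with young libraries 2 and 3, against 0.980 between those and 0.974 to 0.985 among old libraries. The pair was not at its lowest there. Without young library 1 the log2 differences were 3.32 for Lilrb4a, 3.62 for Lilr4b and 3.41 for the pair, so the members' values moved little, whereas the calls over all genes moved from 78 higher and 14 lower to 616 and 313. Without young library 2 or without old library 2 no gene was called by edgeR, although 1296 and 688 genes had an unadjusted p under 0.05 there. Counts of calls below therefore depend on the libraries used. They rest on a threshold, and a log2 difference is an unlike measure. The log2 differences of the 8 called genes of the lists below also kept their direction with each library left out. The groups of these genes and of the members did not overlap, so leaving out 1 library could not reverse them.

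The levels also place the pair within the transcriptome of each library. By FPKM, which also scales for transcript length, 4302, 3991 and 5906 of the 10509 genes tested were above the pair in the young libraries, and 434, 448 and 419 in the old ones. The pair was thus above 43.8% to 62.0% of genes in young and above 95.7% to 96.0% in old libraries. Taken alone, Lilrb4a stood at 12.33, 13.48 and 7.61 FPKM in young and at 112.25, 93.93 and 109.87 FPKM in old libraries. Lilr4b stood at 7.57, 7.57 and 2.72 FPKM in young and at 58.78, 58.68 and 66.1 FPKM in old libraries. Both were above 1 FPKM, the filter used for the mean, in each of the 6 libraries. The levels of Lilrb4a and of the pair include predicted noncoding models, which are described below.

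The balance between the members moved by less than the spread of the young group. Lilr4b held 31.2%, 29.7% and 20.9% of the pair's counts in the young libraries and 28.7%, 33% and 31.1% in the old ones. The means were 27.3% ± 5.55 and 30.9% ± 2.18 (SD, n = 3 each), a difference of 3.64 percentage points, and the groups overlapped. By FPKM the mean shares were 33.4% in young and 36.8% in old. Over all transcripts Lilrb4a thus held more of the pair's counts than Lilr4b in every library. Over coding transcripts alone the order was the other way in 5 of 6 libraries: Lilr4b, without ITIMs, held 62.1%, 48.5% and 50.7% of the pair's coding counts in young and 56.8%, 62.2% and 60.6% in old libraries. These shares rest on how the counting separated near-identical sequences. Of all windows of 50 bases in the full GENCODE transcripts, 27.8% of those of Lilrb4a occur unchanged in a GENCODE transcript of Lilr4b. Of those of Lilr4b, 22.9% occur in one of Lilrb4a. At 150 bases the shares are 7.47% and 5.45%, and the read length is not given in the sources used here. The counting used RefSeq models, so the window shares do not measure its ambiguity directly.

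The transcripts of Lilrb4a fell into coding and predicted noncoding models. Of its 6 RefSeq transcripts, 2 are coding (NM) and 4 are predicted noncoding models (XR). Both coding transcripts carry the full coding sequence with the ITIMs. Their summed counts were 100.64, 188.31 and 61.57 in young and 1070.5, 887.9 and 1039.63 in old libraries. The noncoding models together had 261.78, 231.55 and 177.23 counts in young and 2437.33, 2081.45 and 2503.48 in old libraries, which was 67.2% ± 10.5 and 70.1% ± 0.588 of the gene's counts (SD, n = 3 each). The larger part of what is counted as Lilrb4a was therefore assigned to models without a coding sequence in both groups.

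A single model, XR_871431.2, took most of the noncoding counts in old libraries. It had 163.18, 160.39 and 49.07 counts in young and 1836.19, 1730.95 and 1869.85 in old libraries. The main coding transcript, NM_001291894.1, had 82.33, 108.22 and 61.57 counts in young and 976.73, 887.9 and 825.87 in old libraries. For both of these transcripts the groups did not overlap. The second coding transcript, NM_013532.3, varied between libraries of the same group, with 18.31, 80.09 and 0 counts in young and 93.77, 0 and 213.76 in old libraries, and it encodes the same protein as the main one. When coding transcripts alone were summed, an alternative added after the data were seen, the log2 difference was 3.06 (SE 0.37) for Lilrb4a and 3.26 for the pair.

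The transcripts of Lilr4b are all coding and are of 2 forms. NM_001291892.1 and NM_008147.2 match the full form, and NM_001291893.1 matches Lilr4b-211, which lacks the third exon (chr10:51481140-51481424). That exon has 285 bases, a whole number of codons, and encodes the first immunoglobulin-like domain, so the shorter form keeps its reading frame. The shorter form had 97.92, 129.49 and 37.37 counts in young and 677.43, 503.47 and 927.42 in old libraries. It made up 59.5%, 73.1% and 59.1% of the counts of Lilr4b in young and 48.1%, 34.4% and 58.0% in old libraries. The highest old share was just below the lowest young share, so the groups did not overlap by a narrow margin, and the means were 63.9% ± 7.96 and 46.8% ± 11.9 (SD, n = 3 each). The full form NM_008147.2 was at 0 in young libraries 1 and 2 and in old library 3, and NM_001291892.1 was at 0 in young library 3. RSEM divides reads between such transcripts by a model, and each single value is an estimate of that model.

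**Figure D2:**
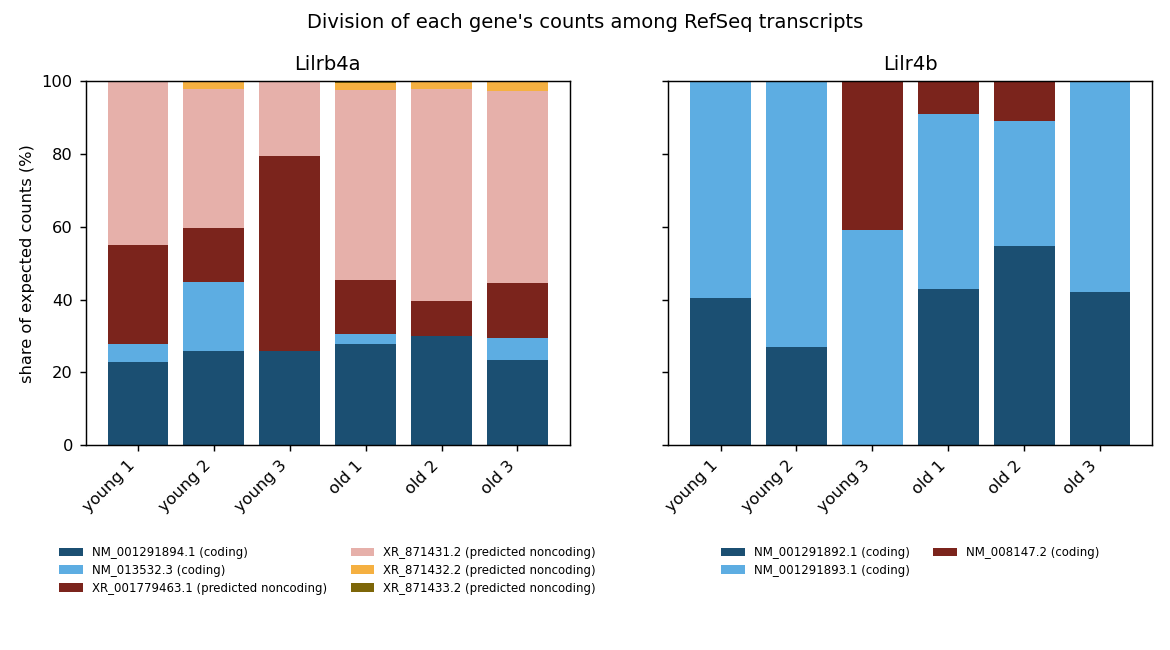
Share of each gene's expected counts, in percent, given to each RefSeq transcript, with 1 stacked bar per library. The predicted noncoding models make up 55.1% to 74.2% of Lilrb4a over the 6 libraries, and NM_001291893.1 makes up 34.4% to 73.1% of Lilr4b.

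The annotation limits these divisions further. GENCODE lists 9 retained-intron transcripts for Lilrb4a and 8 for Lilr4b, beside 4 and 2 coding ones. It also lists a read-through gene, Gm49339, that spans both members, and an antisense gene, Gm40645, on the minus strand (chr10:51489530-51522447) over Lilrb4a. RefSeq gives Gm40645 a shorter span, chr10:51520022-51526263, which overlaps the GENCODE span in part and lies past the end of Lilrb4a. The strand setting of the counting is not given in the sources used here, so reads of an antisense transcript over Lilrb4a, if there is one, cannot be told apart from those of the gene. Sequences of the XR models were not used here.

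Next to other receptors, Lilrb4a moved from the lower part of the order to the upper part. The comparison took 26 receptors above the filter, which were the members, 21 other receptors with an ITIM or the related ITSM, and Ctla4, Lag3 and Havcr2. By mean FPKM, summed over all models of a gene, Lilrb4a was 15th in young libraries at 11.1 ± 3.11 and 6th in old ones at 105 ± 9.96 (SD, n = 3 each). Its coding transcripts alone were at 4.34 ± 2.26 FPKM in young and 36.4 ± 3.58 FPKM in old libraries (SD, n = 3 each). Those means lie below the means of Lilr4b given here, and the order was not taken over coding transcripts. Lag3, a receptor for MHC class II that stood just above it in old libraries, was at 154.12, 120.1 and 149.69 FPKM there. Pdcd1, the PD-1 receptor that stood just below, was at 93.92, 79.97 and 60.41 FPKM in old libraries, and its highest value lay beside the lowest Lilrb4a value of 93.93. Lilr4b was 18th in young libraries at 5.95 ± 2.80 FPKM and 11th in old ones at 61.2 ± 4.26. Its old values overlapped those of its neighbours Slamf6 (80.73, 61.72 and 58.71 FPKM) and Ly9 (58.79, 57.86 and 51.83 FPKM), which are receptors of the SLAM family, so the order among them is within the spread.

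**Figure D3:**
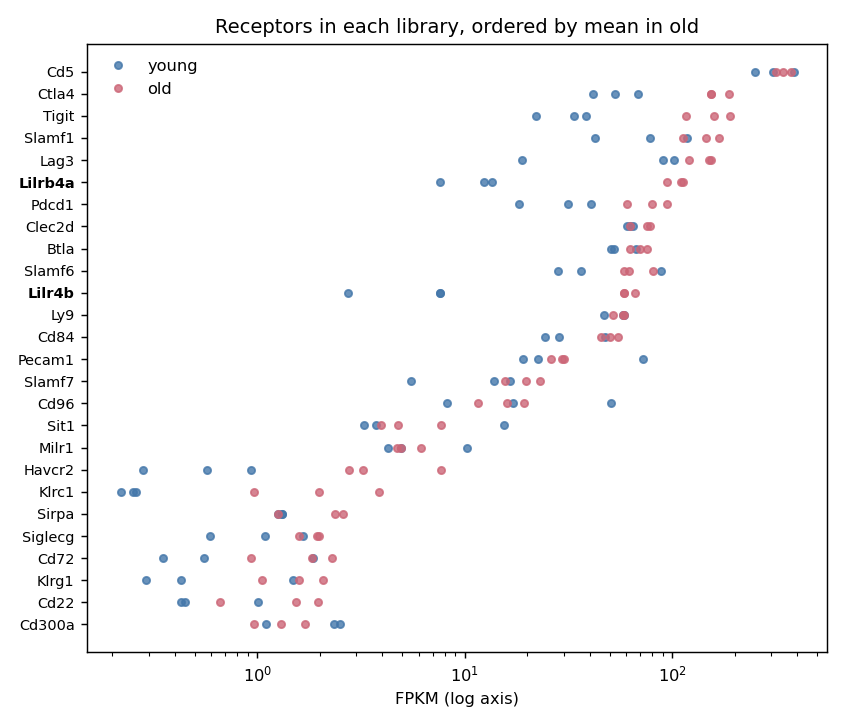
FPKM of 26 receptors on a log axis, ordered by their mean in old libraries, with 1 point per library and the members in bold. The old points of Lilrb4a lie between 93.9 and 112 FPKM, next to those of Lag3 and Pdcd1, while its young points lie between 7.61 and 13.5 FPKM. FPKM is summed over all models of a gene, which for Lilrb4a include predicted noncoding ones.

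The other members of the family were at low levels in both groups. Of 5 further genes of the LILR and PIR family in the table, Pirb, an inhibitory paired receptor of B cells and myeloid cells, was the 1 that passed the filter. Pirb was at 6.71, 3.87 and 2.72 CPM in young and at 0.764, 4.32 and 7.92 CPM in old libraries. Its groups overlapped, with a log2 difference of -0.03 (SE 0.73, adjusted p = 0.997). The other 4 genes, Lilra5, Lilra6, Pira1 and Pira2, were below the filter. The 5 genes summed to 12.3, 6.34 and 4.62 CPM in young and to 2.29, 7.40 and 12.1 CPM in old libraries, with no common direction.

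Genes of adaptors that pair with activating receptors of several families differed widely in level. Of 4 genes tested, edgeR called none, which is near the background of 0.875%, and none had an unadjusted p under 0.05, with a median log2 difference of -0.13 beside -0.03 for all genes. Fcer1g, the common Fc receptor gamma chain, was at 4.40 ± 1.46 CPM in young and 3.47 ± 0.924 CPM in old libraries (SD, n = 3 each), and its groups overlapped. Tyrobp, which encodes DAP12, was at 2.03, 1.88 and 2.60 CPM in young and at 1.20, 1.13 and 1.64 CPM in old libraries, with the old libraries below the young ones and an adjusted p of 0.537. Cd247, the zeta chain of the T-cell receptor complex, was at 427 ± 108 and 507 ± 64.6 CPM (SD, n = 3 each, adjusted p = 0.811 by edgeR).

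Genes for proposed ligands of LILRB4 receptors split in direction. Integrin αvβ3 is a reported ligand of the mouse receptor, and apolipoprotein E, fibronectin, ALCAM and galectin-8 have been reported as ligands of the human or mouse protein. Of the 6 genes, 5 were tested, 1 was called lower and none was called higher, beside 0.133% and 0.742% of all genes. The median log2 difference was -0.09, and 3 had an unadjusted p under 0.05. Itgb3, the β3 chain, fell from 101.5, 57.6 and 71.2 CPM in young to 29.8, 31.2 and 24.9 CPM in old libraries. Its log2 difference was -1.42 (SE 0.24), and its adjusted p was 0.04999, just inside the threshold of 0.05.

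The partner chain of Itgb3 stood the other way. Itgav, the αv chain, was at 54.1, 58.9 and 49.7 CPM in young and at 85.8, 129 and 94.8 CPM in old libraries, a log2 difference of 0.93 (SE 0.20, edgeR adjusted p = 0.0931) that was not called. Alcam, an adhesion protein that also binds CD6, was at 28.0, 60.1 and 56.2 CPM in young and at 92.7, 92.9 and 94.6 CPM in old libraries (adjusted p = 0.238). Apoe was at 19.8 ± 2.79 and 15.4 ± 0.703 CPM (SD, n = 3 each, edgeR adjusted p = 0.563). Without young library 1, 2 of the 5 genes were called higher and 1 lower. These are levels in the T-cell samples themselves, and cells that could present such ligands in the body were not measured.

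The list of phosphatases and kinases around ITIM signalling also holds adaptors such as Grb2, Shc1 and Dok1. None of its genes was called in the main test, and it is named phosphatases and kinases below. Of 20 genes 17 were tested, with none called by edgeR, 5 at an unadjusted p under 0.05 and a median log2 difference of 0.23, while DESeq2 called 2 higher. For 6 of the 17 the old libraries were all above the young ones, beside 9.9% of all genes, and for 1 they were all below. Ptpn6, which encodes the phosphatase SHP-1 and is named here for its role after its values were seen, was at 161.5, 209.3 and 204.7 CPM in young and at 207.9, 179.5 and 216.0 CPM in old libraries. Inpp5d, which encodes SHIP-1 and was picked in the same way, was at 86.5 ± 33.5 and 108 ± 11.5 CPM (SD, n = 3 each), and the groups of both genes overlapped. Transcripts of both were thus present in each group at levels whose difference was within the spread.

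Among the rest, the smallest p-values belonged to a kinase and a pair of phosphatases. Src, the founding kinase of its family, was at 4.92, 3.33 and 2.54 CPM in young and at 8.62, 12 and 11.8 CPM in old libraries, a log2 difference of 1.58 (SE 0.31). Src passed the filter only through the old group, at 0.913 FPKM in young and 2.74 FPKM in old libraries, so its difference is given as a value. Ptpn22, a phosphatase that restrains T-cell receptor signalling, was at 316 ± 35.4 and 523 ± 31.2 CPM (SD, n = 3 each, edgeR adjusted p = 0.112). Ptpn11, which encodes SHP-2, was at 103 ± 6.67 and 146 ± 19 CPM (SD, n = 3 each, edgeR adjusted p = 0.266). Without young library 1, 3 of the 17 genes were called higher.

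Other receptors with an ITIM or ITSM gave 1 call among 21 tested of 35 listed. Their median log2 difference was 0.63, over a range of -0.68 to 3.24, and 5 of 21 had old libraries all above the young ones, beside 9.9% of all genes. Tigit, an inhibitory receptor that competes for CD155, rose from 31.5, 37.0 and 21.9 CPM in young to 180.6, 149.7 and 114.6 CPM in old libraries (log2 difference 2.30, SE 0.26, adjusted p = 0.0207). The span of Tigit overlaps that of Zbtb20 in the RefSeq gene table, and shared transcript sequence was not checked. Klrc1, which encodes the receptor NKG2A, was at 0.463, 0.430 and 0.520 CPM in young and at 1.86, 3.89 and 7.81 CPM in old libraries. It passed the filter only through the old group, at a mean of 0.243 FPKM in young and 2.26 FPKM in old libraries, so its log2 difference of 3.24 (SE 0.59), the upper end of the list's range, is given as a value and not read as a result. Pdcd1 was at 58.8 ± 22.5 and 151 ± 30.2 CPM (SD, n = 3 each, edgeR adjusted p = 0.126). Without young library 1, 6 of the 21 were called higher.

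A further list held genes of the co-inhibitory module that Prdm1, Maf and related factors are known to drive in T cells. It was written with earlier results of these data known, and its direction is no independent evidence. Of 19 genes tested 5 were called higher and none lower, beside 0.742% and 0.133% of all genes. For 15 of the 19 the old libraries were all above the young ones, beside 9.9% of all genes, and the median log2 difference was 1.36 (1.33 without young library 1, with 13 called). Of the 19 genes 2 passed the filter only through the old group, as did 4 of the 21 other receptors and 2 of the 17 phosphatases and kinases, so the medians and counts of these lists include genes that had to stand higher in old libraries. The called genes were Tigit, Il10, Maf, Ctla4 and Nfil3, and each was above 1 FPKM in the mean of both groups. DESeq2 called 12.

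The regulators of the module were all higher in the old libraries, and 2 of the 3 were called. Maf, a transcription factor of interleukin-10 production, rose from 42.0, 42.0 and 24 CPM in young to 152.4, 167.3 and 139.9 CPM in old libraries (log2 difference 2.09, SE 0.25, adjusted p = 0.0241). Nfil3, a transcription factor that also induces interleukin-10, rose from 24.8, 44.8 and 29.6 to 115.4, 98.2 and 83.7 CPM (log2 difference 1.58, SE 0.26, adjusted p = 0.0451). Prdm1, which encodes Blimp-1 and was picked after its values were seen, was at 17.7, 7.04 and 5.43 CPM in young and at 35, 32.1 and 26.8 CPM in old libraries, and was not called (log2 difference 1.64, SE 0.43, adjusted p = 0.174). For all 3 regulators the groups did not overlap.

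The products of the module included a cytokine and several receptors. Il10, an anti-inflammatory cytokine, rose by 2.97 on the log2 scale (SE 0.33, adjusted p = 0.0207), and Ctla4, which competes with CD28 for its ligands, by 1.60 (SE 0.20, adjusted p = 0.0262). Havcr2, which encodes TIM-3, was at 2.49, 1.56 and 0.809 CPM in young and at 7.53, 8.75 and 21.5 CPM in old libraries (log2 difference 2.96, SE 0.56), with a wide spread. It too passed the filter only through the old group, at 0.593 FPKM in young and 4.55 FPKM in old libraries, and its difference is given as a value. Icos and Tnfrsf18, which are costimulatory receptors, had adjusted p-values of 0.0976 and 0.114 in the edgeR fit.

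Genes of activation were described beside these because Lilrb4 is itself known to rise on activated T cells. Of 16 tested 2 were called higher, Batf and Cd44, and none lower, beside 0.742% and 0.133% of all genes. For 9 of the 16 the old libraries were all above the young ones, beside 9.9% of all genes, with a median log2 difference of 1.06 (0.82 without young library 1, with 7 called). The list summed to 3477, 6933 and 5938 CPM in young and to 7327, 8764 and 10473 CPM in old libraries. It was lowest in young library 1, whereas the pair was lowest in young library 3. Batf, a factor of effector T cells, rose by 1.53 on the log2 scale (SE 0.18, adjusted p = 0.0250) and Cd44, an adhesion receptor of antigen-experienced cells, by 1.40 (SE 0.21, adjusted p = 0.0368). Tnfrsf4, Il2ra and Egr1 had edgeR adjusted p-values of 0.0883, 0.113 and 0.120. The part of differing activation in the members' levels was not tested.

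The genes of T-cell identity were present in all libraries. Of 12 tested, edgeR called none in either direction, 3 had an unadjusted p under 0.05, DESeq2 called 1 higher, and the median log2 difference was 0.12. Cd4 was at 638.9, 454.3 and 320.3 CPM in young and at 630.1, 513.4 and 405.6 CPM in old libraries, with groups that overlapped. Cd3e, a chain of the T-cell receptor complex, was at 430 ± 62.6 and 497 ± 70.01 CPM (SD, n = 3 each). The 3 with the smallest p were Cd2 (adjusted p = 0.244), Thy1 (0.265) and Trat1 (0.373) by edgeR. Over all 8 lists, counting each gene once, 7 of 90 tested genes were called higher and 1 lower, beside 0.742% and 0.133% of all genes.

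**Figure D4:**
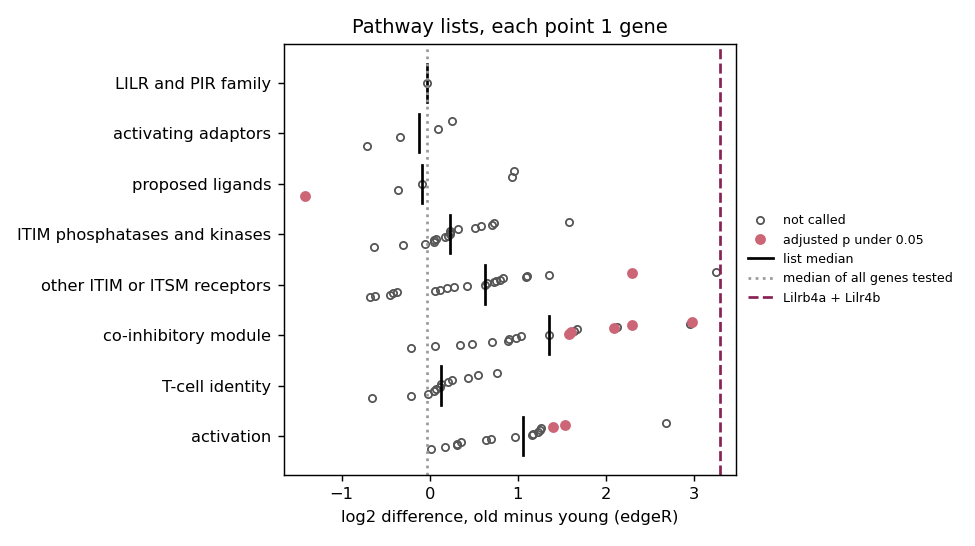
Log2 difference, old minus young, of each tested gene of the 8 lists, with 1 point per gene and called genes marked, beside the median of all 10509 genes at -0.03. The co-inhibitory list has a median of 1.36 and the activation list one of 1.06, and Itgb3 at -1.42 is the called gene below 0.

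The genes around the pair that were measured were close to silent. RefSeq lists 12 other genes within 500000 bases of the pair, of which 4 were in the table and none passed the filter. These were Sim1, Fam162b, Gprc6a and Rfx6, and the highest level of any of them in any library was 0.16 FPKM. No difference could be detected at such levels.

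The members' log2 CPM correlated at r = 0.992 over 6 libraries, a value that includes the difference between groups for which both were chosen. After the group means were taken out r was 0.926, though both share libraries and the division of reads between them. Young library 3 was the lowest young library for both members. Among old libraries the lowest was library 2 for Lilrb4a and library 1 for Lilr4b. The genes whose log2(CPM + 0.5) was most like that of the pair over the 6 libraries were, after 1 gene without a name that was left out by rule (r = 0.996), Il1r2, Ralgds, Casp1, AU041133, Socs2, Icos, Ttc39c and Tank, with Pearson's r of 0.993 to 0.996. In all, 154 of 10507 genes had an r over 0.95, and these genes share with the pair the libraries and the difference between groups by which it was chosen.

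Of those 8 genes edgeR called 4, beside 0.875% of all genes tested. They were picked by a likeness that includes the difference between groups, so this count and the adjusted p-values below are given as a description. Casp1, the inflammatory caspase, rose from 3.63 ± 1.62 to 35.6 ± 2.07 CPM (SD, n = 3 each), a log2 difference of 3.29 (SE 0.34, edgeR adjusted p = 0.0195) close to that of the pair. Ttc39c rose from 5.75 ± 1.13 to 35 ± 5.49 CPM (SD, n = 3 each; log2 difference 2.60, SE 0.23, edgeR adjusted p = 0.0142). Il1r2, a decoy receptor for interleukin-1, rose by 1.75 on the log2 scale (SE 0.23, adjusted p = 0.0262). Socs2, an inhibitor of cytokine signalling, rose by 1.29 (SE 0.17, adjusted p = 0.0262). Ralgds, AU041133, Icos and Tank were not called, with edgeR adjusted p-values of 0.0664, 0.188, 0.0976 and 0.0631.

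Since Lilrb4a and Lilr4b are known from myeloid and mast cells, and LILRB4 also from plasma cells, markers of other cell types are given beside them. Of 95 marker entries measured, with Kit in both the mast cell and the innate lymphoid list, 40 were tested. None was called by edgeR in either direction, which is near the background of 0.875% and says little about the markers. The macrophage and monocyte list had 9 of 20 genes above the filter and summed to 256, 118 and 121 CPM in young and to 170, 144 and 165 CPM in old libraries, so the groups overlapped. The groups overlapped for all 3 defining markers. Csf1r was at 2.26, 0.860 and 1.39 CPM in young and 1.15, 0.594 and 0.820 CPM in old, Adgre1 was at 0.219 to 0.868 CPM and Cd14 at 0.648 to 1.04 CPM over the 6 libraries. Other genes of the list differed in direction: Ccr2, a chemokine receptor, was at 6.31, 2.85 and 1.62 CPM in young and at 16.4, 11.1 and 12.1 CPM in old libraries, and Cybb, a chain of the phagocyte oxidase, at 14.5, 10.7 and 7.57 CPM in young and at 24.1, 21.1 and 17.2 CPM in old libraries (adjusted p = 0.238). Both were picked after their values were seen, were higher in every old library than in any young one, and were not called, and Ccr2 passed the filter only through the old group. Apoe stood the other way, and the part of myeloid cells in the members' difference was not tested.

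Mast cells, basophils and eosinophils had 0 of 14 markers above the filter. Their list summed to 12.8, 8.17 and 5.37 CPM in young and to 8.02, 4.81 and 6.99 CPM in old libraries, and Cpa3, the mast cell carboxypeptidase, was at 0 to 0.322 CPM. Neutrophil markers summed to 151, 67.5 and 161 CPM in young and to 76.1, 39.5 and 29.1 CPM in old libraries, and Ly6g was at 0 in all old libraries. Neither list stood higher in old libraries. The 9 neutrophil genes tested had a median log2 difference of -1.88, beside -0.03 for all genes, and none was called. The filter is on the mean over both groups, so genes high in young libraries alone could pass it.

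The summed plasma cell markers were higher in old libraries by a narrow margin, through 1 gene. The list, with 4 of 6 genes tested, summed to 6.66, 7.90 and 8.90 CPM in young and to 20.2, 8.96 and 17 CPM in old libraries, so that the groups did not overlap. Without Jchain the other 5 genes summed to 5.38, 5.70 and 4.56 CPM in young and to 4.91, 4.10 and 4.10 CPM in old libraries. Jchain, the joining chain of secreted antibodies, was at 1.27, 2.20 and 4.33 CPM in young and at 15.3, 4.86 and 12.9 CPM in old libraries and was not called (adjusted p = 0.196). The other defining markers, Sdc1 and Tnfrsf17, were at no more than 1.27 and 0.289 CPM in any library. Fkbp11, a chaperone of secretory cells picked after its values were seen, was lower in every old library than in any young one, and passed the filter only through the young group. The part of plasma cells in the members' difference was not tested.

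Dendritic cell markers had 6 of 12 genes above the filter and summed to 114, 159 and 195 CPM in young and to 183, 174 and 252 CPM in old libraries. Cd209a was at 0 in all libraries, and Zbtb46, a factor of dendritic cells, was at 5.79, 8.87 and 8.20 CPM in young and at 14.5, 16.1 and 20.6 CPM in old libraries without a call (adjusted p = 0.0954). Flt3 and Xcr1, the other defining markers, had groups that overlapped. B cell markers summed to 37.3 to 86.4 CPM in young and to 33.9 to 64.4 CPM in old libraries. The part of dendritic cells in the members' difference was not tested.

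The summed markers of natural killer and innate lymphoid cells, and those of the CD8 and gamma-delta list, were lower in old libraries. Markers of natural killer and innate lymphoid cells summed to 73.3, 115 and 111 CPM in young and to 52.3, 68.2 and 69.2 CPM in old libraries, and Ncr1 was at no more than 0.492 CPM in any library. The 5 tested genes of that list had a median log2 difference of 0.71, opposite in sign to the change of the sum. Of 7 listed markers of CD8 and gamma-delta T cells, 3 were measured and 1 was tested. These 3 summed to 20.1, 16.7 and 28.0 CPM in young and to 15, 11.4 and 13.1 CPM in old libraries. Most of the mean sum came from Cd8b1 in both groups, so the sum says little about gamma-delta T cells. Cd8a was at 1.95 ± 0.471 and 2.09 ± 0.0180 CPM and Cd8b1 at 19.3 ± 5.98 and 10.8 ± 1.69 CPM (SD, n = 3 each, edgeR adjusted p = 0.266 for Cd8b1).

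**Figure D5:**
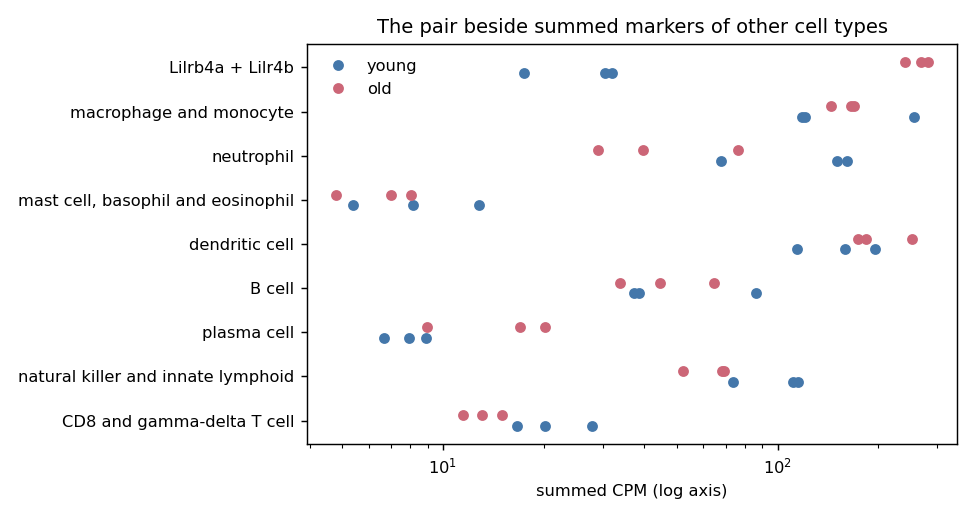
Summed CPM of each marker list of another cell type on a log axis, with 1 point per library, beside the CPM of the pair. The pair goes from 17.4 to 32.1 CPM in young to 239 to 281 CPM in old libraries, while the plasma cell list goes from 6.66 to 8.90 CPM to 8.96 to 20.2 CPM and the old and young sums of the macrophage list overlap.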

How the data were processed

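The authors deposited a table of 66712 RefSeq transcripts with RSEM expected counts and FPKM per library, per the file headers. Bowtie, RSEM and GRCm38 (mm10) are named without versions in the submitters' processing notes, and the sources used here do not give the read length, filters or strand setting. The expected counts and the FPKM values deposited by the authors were summed over the transcripts of each Entrez gene. Of 19977 gene numbers 19830 matched the RefSeq table of GRCm38.p6, and the 147 others held 0.121% to 0.211% of counts.

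Summed counts were rounded and fitted with edgeR 4.0.16 in R 4.3.3 (quasi-likelihood, TMM factors, mean FPKM of at least 1, 10509 genes). Adjusted p-values in the text are those of this fit after Benjamini-Hochberg adjustment over all genes, and called means under 0.05. The pair was fitted with its genes replaced by their sum. The scripts were tested on simulated data. Any 2 libraries of the same group differed by more than sampling noise (smallest chi-square per degree of freedom 21.6).

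The members, the 8 gene lists and the 8 marker lists were chosen with earlier results of these data known. Named genes were the members, called genes of the lists, up to 3 others per list with the smallest p, and the 8 genes most like the pair in pattern, leaving out receptor segment, histone and unnamed genes. Receptors next to the members in level, defining markers and the positional neighbours were named by place. Coding sequences came from GENCODE vM21 transcripts. Alternatives were DESeq2 1.42.0, limma 3.58.1 on log2(FPKM + 1) and log2(FPKM + 0.1), RLE factors, other filters, a replicate block and leaving out each library. A sum over coding transcripts alone was added after seeing the data. matplotlib 3.10.9 drew the figures.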

Additional observations from a re-analysis of the deposited data

How the results depend on the processing

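The members' log2 differences kept their direction under every alternative run, and all lay between 3.05 and 3.62. With each library left out in turn they ranged from 3.05 to 3.38 for Lilrb4a, from 3.08 to 3.62 for Lilr4b and from 3.06 to 3.45 for the pair, and the difference in Lilr4b's share of the pair from 0.46 to 5.61 percentage points. Counts of calls, which rest on a threshold and are an unlike measure, changed. Genes called higher numbered 78, against 182 with no filter, 46 at a mean FPKM of at least 5 and 374 with DESeq2, and genes called lower numbered 14, against 9 at the stricter filter and 127 with DESeq2. Leaving out each library gave 0 to 616 higher and 0 to 313 lower.

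Among the lists, DESeq2 called higher 1 ligand, 2 genes of the phosphatase and kinase list and 3 other ITIM or ITSM receptors. It also called higher 12 co-inhibitory, 1 identity and 7 activation genes. With no filter 1 gene of the phosphatase and kinase list and 2 other receptors were called higher and 1 other receptor lower. The call of Itgb3 was lost, leaving 0 ligands lower, at the stricter filter and with limma at both pseudocounts. Leaving out each library gave 0 to 1 ligands lower and 0 to 2 higher. It also gave 0 to 3 genes of the phosphatase and kinase list and 0 to 6 other receptors higher. Co-inhibitory, identity and activation genes called higher then numbered 0 to 13, 0 to 1 and 0 to 7. Over the 8 called genes of the lists, 42 of 104 alternatives lost the call, 39 of them by leaving out a library, and none reversed. The groups of these genes did not overlap, so a leave-out could not reverse them. Each leave-out had fewer libraries, and without young library 1 all 8 genes kept the call. The cause of the lost calls was not tested.

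Young and old libraries share replicate numbers, but deviations of same-numbered libraries correlated at 0.23, -0.02 and 0.20, so the numbers were not taken as pairs, and not every library correlated best with its own number. With the replicate block 104 genes were called higher and 15 lower, with 2 other ITIM or ITSM receptors higher in place of 1, 6 co-inhibitory genes in place of 5 and 3 activation genes in place of 2, and the pair's log2 difference was 3.34.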
